A study of Mus musculus with 6 samples.

Results

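Immediate early genes are transcribed within minutes of a stimulus, without new protein synthesis. The 8 genes described here were chosen by name: Fos, Jun, Junb and Jund, subunits of the AP-1 transcription factor; Egr1, a zinc finger transcription factor; Atf3, a stress-induced bZIP transcription factor; Dusp1, a phosphatase that inactivates MAP kinases; and Ccn1, a secreted matrix protein also known as Cyr61. A gene was taken by its symbol in the probe table, and its spots were averaged on each array. All 8 were measured, of 11138 named genes in all. The choice was made with earlier results of these data known. Counts of the 8 set beside shares of all named genes are therefore descriptions, not tests.

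The cells were sorted endothelial cells of mice, and each of the 6 arrays compared RNA of smoke-exposed mice in channel 1 with RNA of control mice in channel 2. For 6 weeks of smoke, 2 arrays used 1-week control and 1 array used 6-week control. The second of the 2 is labelled a dye reversal of this comparison. It was taken to repeat the RNA of the first, which no label states. For 1 week of smoke there were 3 arrays, of which 1 is labelled a dye reversal. Strain, tissue of origin, sort marker, age, smoke dose, number of mice, pooling and the duration of the control on the 1-week arrays are not given in the sources used here, nor whether the 6-week and 1-week arrays share control RNA. The p-values therefore measure the spread between arrays, which may be technical.

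In resting cells these genes are mostly quiet, and signals that reach the MAP kinases, the serum response factor or CREB switch them on briefly. AP-1 forms as Jun proteins pair with Fos, Atf or other Jun proteins, and DUSP1 closes the loop by switching off the kinases that induced it. In endothelium, shear stress, growth factors and oxidants are known inducers, and CCN1 acts on integrins in vessel growth and repair.

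All values are log2 ratios between the channels of an array, each array centred on its median, with the sign as deposited. A positive value is likely higher after smoke, because the titles name smoke first and channel 1 holds smoke on every array. Neither the numerator nor whether the ratios of dye-reversed arrays were turned before deposit is stated. If the ratio is control over smoke, every sign below turns. Ratios carry no level, so the presence of endothelial transcripts could not be checked and the 8 genes are not ranked by abundance. In bulk RNA, fewer cells of a type and less RNA per cell cannot be told apart. The 6 arrays limit the precision. Across named genes the 5th percentile of an array lay between -0.92 and -0.65 and the 95th between 0.71 and 0.95. The 6-week array against 1-week control and its dye reversal, which hold the same kinds of RNA, had a correlation of only -0.03 across named genes, while the dye-reversed arrays of the 2 times had the highest correlation of any pair, 0.27.

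The regulatory sequence that several of these genes share is the cAMP response element (CRE), which CREB and ATF proteins bind. It is shown because the core, TGACGT or ACGTCA on the other strand, stood in the 250 bases before the start of 4 of the 7 genes matched in RefSeq (GRCm38.p6), against 6.47% of 32851 such windows. Windows were matched for all genes but Egr1. In the lines below, 5′ to 3′ on the strand of the gene, capitals mark the core.
Fos, chr12:85473640-85473889, plus strand: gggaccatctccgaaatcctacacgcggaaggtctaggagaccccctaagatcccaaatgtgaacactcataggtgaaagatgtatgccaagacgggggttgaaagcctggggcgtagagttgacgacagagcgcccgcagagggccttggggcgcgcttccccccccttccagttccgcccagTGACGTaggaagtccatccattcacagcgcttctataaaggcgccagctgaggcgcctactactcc
Dusp1, chr17:26508473-26508722, minus strand: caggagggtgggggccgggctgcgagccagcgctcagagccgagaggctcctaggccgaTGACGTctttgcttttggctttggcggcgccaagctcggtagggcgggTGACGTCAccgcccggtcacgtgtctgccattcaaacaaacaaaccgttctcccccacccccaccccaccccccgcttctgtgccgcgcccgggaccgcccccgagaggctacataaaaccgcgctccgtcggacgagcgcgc
Ccn1, chr3:145649986-145650235, minus strand: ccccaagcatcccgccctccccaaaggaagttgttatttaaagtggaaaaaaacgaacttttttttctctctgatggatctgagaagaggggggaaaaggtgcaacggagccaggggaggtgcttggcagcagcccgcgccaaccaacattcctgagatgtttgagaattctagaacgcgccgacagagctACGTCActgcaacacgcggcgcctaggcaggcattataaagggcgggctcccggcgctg
Atf3, chr1:191183334-191183583, minus strand: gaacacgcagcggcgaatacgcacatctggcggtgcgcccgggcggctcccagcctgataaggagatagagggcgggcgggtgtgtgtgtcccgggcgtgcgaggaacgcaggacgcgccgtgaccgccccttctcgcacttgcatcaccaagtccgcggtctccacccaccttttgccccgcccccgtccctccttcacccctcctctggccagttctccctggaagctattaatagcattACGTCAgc

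The core lies 66 to 61 bases before the start in Fos, 59 to 54 in Ccn1 and 8 to 3 in Atf3. Dusp1 has a core at 191 to 186 and overlapping cores at 143 to 138 and 141 to 136, which together form the full palindrome TGACGTCA, found in 1.55% of windows. The TATA box letters TATAAA, searched on both strands as were all motifs, were in the windows of Fos and Ccn1, against 12.4% of all windows. The AP-1 letters TGANTCA, the EGR1 letters GCGNGGGCG and the CArG box were in none of the 7 windows, against 6.75%, 4.7% and 1.47% of all windows. These are matches of letters only, and bases farther than 250 before the start, or any of Egr1, were not searched. The 4 genes with a core did not share a pattern in the ratios given next.

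The 8 genes did not move as 1 block. At 6 weeks all 8 means were above 0, against 48.9% of named genes, with a median of 0.37 over the 8 and -0.01 over all named genes. This count does not hold without the array against 6-week control, where Jun was -0.18 and Egr1 -0.24. It also does not hold without the 6-week dye reversal, where Atf3 was -0.063. At 1 week 3 of the 8 means were above 0, against 48.9% of named genes, with a median of -0.16 over the 8 and -0.01 over all. Without 1 of the 1-week arrays that median lay between -0.32 and 0.0096, the positive value without replicate 2. The difference was above 0 for 6 of the 8, against 50.2% of named genes, with medians of 0.41 and 0.00. Across arrays the median of the 8 was 0.28 and 0.25 on the 6-week arrays against 1-week control and 0.44 on the array against 6-week control, against -0.06, -0.26 and 0.19 on the 1-week arrays. No member passed an adjusted p of 0.05 in limma's fit over 19242 tests, in which 0.0% passed at either time or in the difference.

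**Figure D1:**
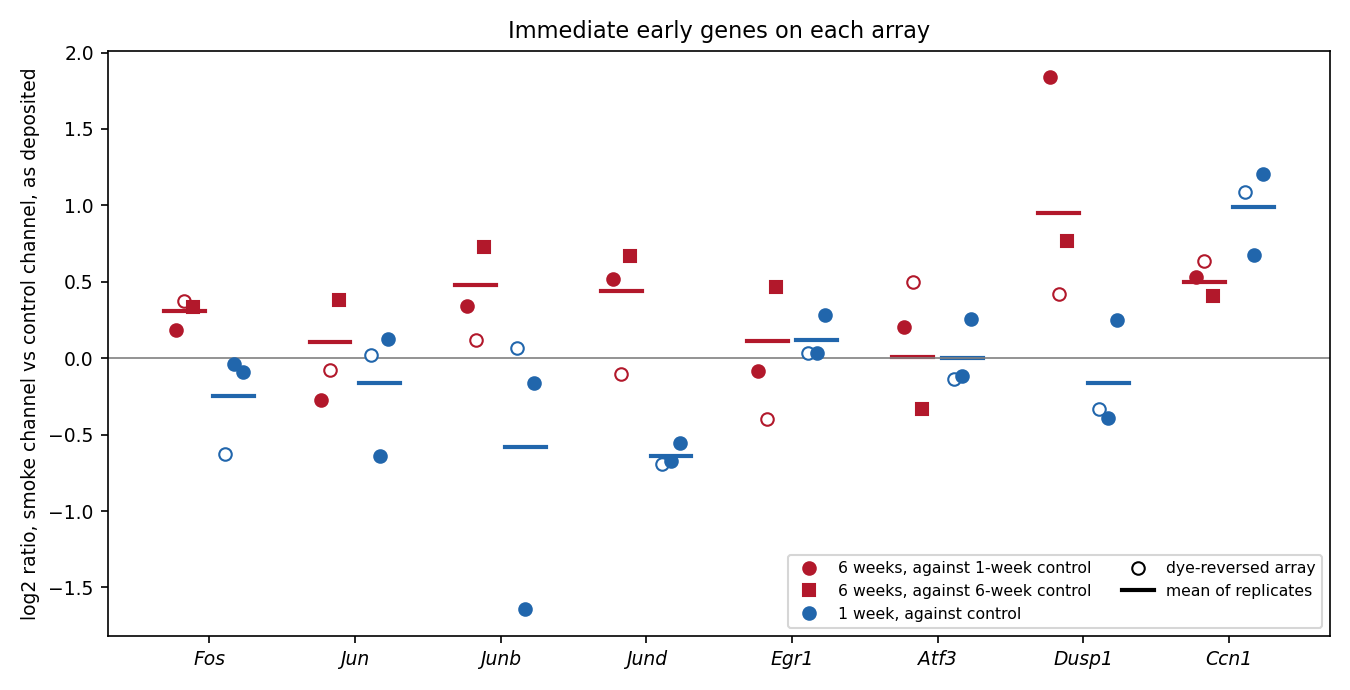
Log2 ratio of each gene (y axis) on each array, with 6-week arrays in red and left of 1-week arrays in blue. Open circles are dye-reversed arrays, squares the array against 6-week control, and bars the means of replicates, with the dye-exchanged 6-week arrays averaged first. Averaged over spots, Jund, Junb, Fos and Dusp1 stand higher on every 6-week array than on any 1-week array, and Ccn1 stands lower.

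Ccn1 was the gene with the firmest ratio. It stood at 0.53 and 0.64 on the 6-week arrays against 1-week control and 0.41 on the array against 6-week control, and at 1.09 on the 1-week dye reversal and 0.67 and 1.21 on the other 1-week arrays. It was positive on all 6 arrays, which 3.24% of named genes were. Averaged over its 2 spots, its 6-week and 1-week values did not overlap. By itself, 1 of the spots overlapped: it read 0.506 on 1-week replicate 2, against 0.546 and 0.585 on the 6-week arrays against 1-week control. The mean was 0.50 ± 0.21 at 6 weeks (SE, n = 2) and 0.99 ± 0.18 at 1 week (SE, n = 3), a ratio of 1.41 and 1.99. Here and below the SE is limma's moderated one, and n counts the replicates averaged. Its spread is pooled over the replicates of both times and drawn towards that of all tests. It is therefore not the spread of the n values alone.

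The 1-week ratio of Ccn1 had an unadjusted p of 0.0019 and an adjusted p of 0.455 over all 19242 tests by limma. Among the 5625 genes whose spots lay within 1 log2 unit of each other on every array, all 8 members included, Ccn1 rose at 1 week with an adjusted p of 0.0241 by limma, where 1.81% of genes passed. That fit estimated the spread anew from these genes, and the unadjusted p of Ccn1 in it was 0.000202 by limma. Ccn1 was the only member to pass at 1 week. None passed at 6 weeks, where 0.213% of these genes did, or in the difference, where 0.0% did. This call does not hold if the 1-week dye reversal is turned as well as the 6-week one: the 1-week mean is then 0.26 with an adjusted p of 0.921. It also does not hold without any 1 of the 1-week arrays (adjusted p of 0.0655, 0.066 and 0.17) or without the array against 6-week control (0.0752).

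The 6-week minus 1-week difference of Ccn1 was -0.49 ± 0.28, with a 95% interval of -1.19 to 0.20 and an adjusted p of 0.951 by limma. Averaged over its spots, its 6-week and 1-week arrays stood apart, but this difference did not pass. The arrays of the 2 times that do not overlap made up 10.7% of named genes, 4.81% with 6 weeks above and 5.87% with 6 weeks below. Of the 8 genes, averaged over spots, 4 stood above and Ccn1 stood below.

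Jund, a Jun family gene expressed in resting cells as well as stimulated ones, had the tightest 1-week values of the 8. It stood at 0.52 and -0.10 on the 6-week arrays against 1-week control and 0.67 on the array against 6-week control, and at -0.69, -0.67 and -0.56 on the 1-week arrays. The 6-week values spanned both signs, the low one on the dye reversal, and none of them overlapped the 1-week values. The mean was 0.44 ± 0.20 at 6 weeks (SE, n = 2) and -0.64 ± 0.17 at 1 week (SE, n = 3, unadjusted p = 0.0102 by limma). The difference of 1.08 ± 0.26 had a 95% interval of 0.42 to 1.74, an unadjusted p of 0.00784 and an adjusted p of 0.951 by limma. Among genes with agreeing spots the 1-week adjusted p was 0.0819. Without the array against 6-week control the 6-week mean was 0.21.

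Dusp1 had the highest ratio of the 8 genes on any array. It stood at 1.84 and 0.42 on the 6-week arrays against 1-week control and 0.77 on the array against 6-week control, and at -0.34, -0.39 and 0.25 on the 1-week arrays. Its dye-exchanged arrays differed from each other by more than its 1-week arrays did, and its 2 spots differed by 0.87 on the array against 6-week control. The mean was 0.95 ± 0.24 at 6 weeks (SE, n = 2) and -0.16 ± 0.20 at 1 week (SE, n = 3). Leaving out an array moved the 6-week mean to between 0.59 and 1.30, without the unreversed and the reversed array against 1-week control in that order, and the 1-week mean to between -0.36 and -0.042, without replicates 3 and 2. The 6-week mean had an unadjusted p of 0.0101, and 4.12% of tests had one under 0.05, as had 6.65% at 1 week and 3.55% for the difference. The difference was 1.11 ± 0.32, with a 95% interval of 0.31 to 1.90 and an adjusted p of 0.951 by limma. Its adjusted p at 6 weeks among genes with agreeing spots was 0.219.

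Fos, whose protein pairs with Jun proteins to form stable AP-1 dimers, was the only gene of the 8 with opposite signs on all arrays of the 2 times, a pattern of 2.76% of named genes. It stood at 0.19 and 0.37 on the 6-week arrays against 1-week control and 0.33 on the array against 6-week control, and at -0.62, -0.04 and -0.09 on the 1-week arrays, the lowest on the dye reversal. The means were 0.31 ± 0.22 at 6 weeks (SE, n = 2) and -0.25 ± 0.18 at 1 week (SE, n = 3), and the difference of 0.56 ± 0.29 had a 95% interval of -0.17 to 1.28. Without the 1-week dye reversal the 1-week mean was -0.063 and the difference 0.37. The array carried 2 sequences for Fos with 2 spots each. The spots of the RefSeq sequence averaged 0.06 at 6 weeks and -0.29 at 1 week, and those of an earlier sequence averaged 0.54 and -0.21. The positive 6-week value thus came mostly from the earlier sequence. Its mean per array was 0.34 to 0.66 at 6 weeks, against 0.04 to 0.08 for the RefSeq one. On 1-week replicate 2 the earlier sequence averaged 0.08, above 0. By itself, only the RefSeq sequence thus had opposite signs on all arrays.

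**Figure D2:**
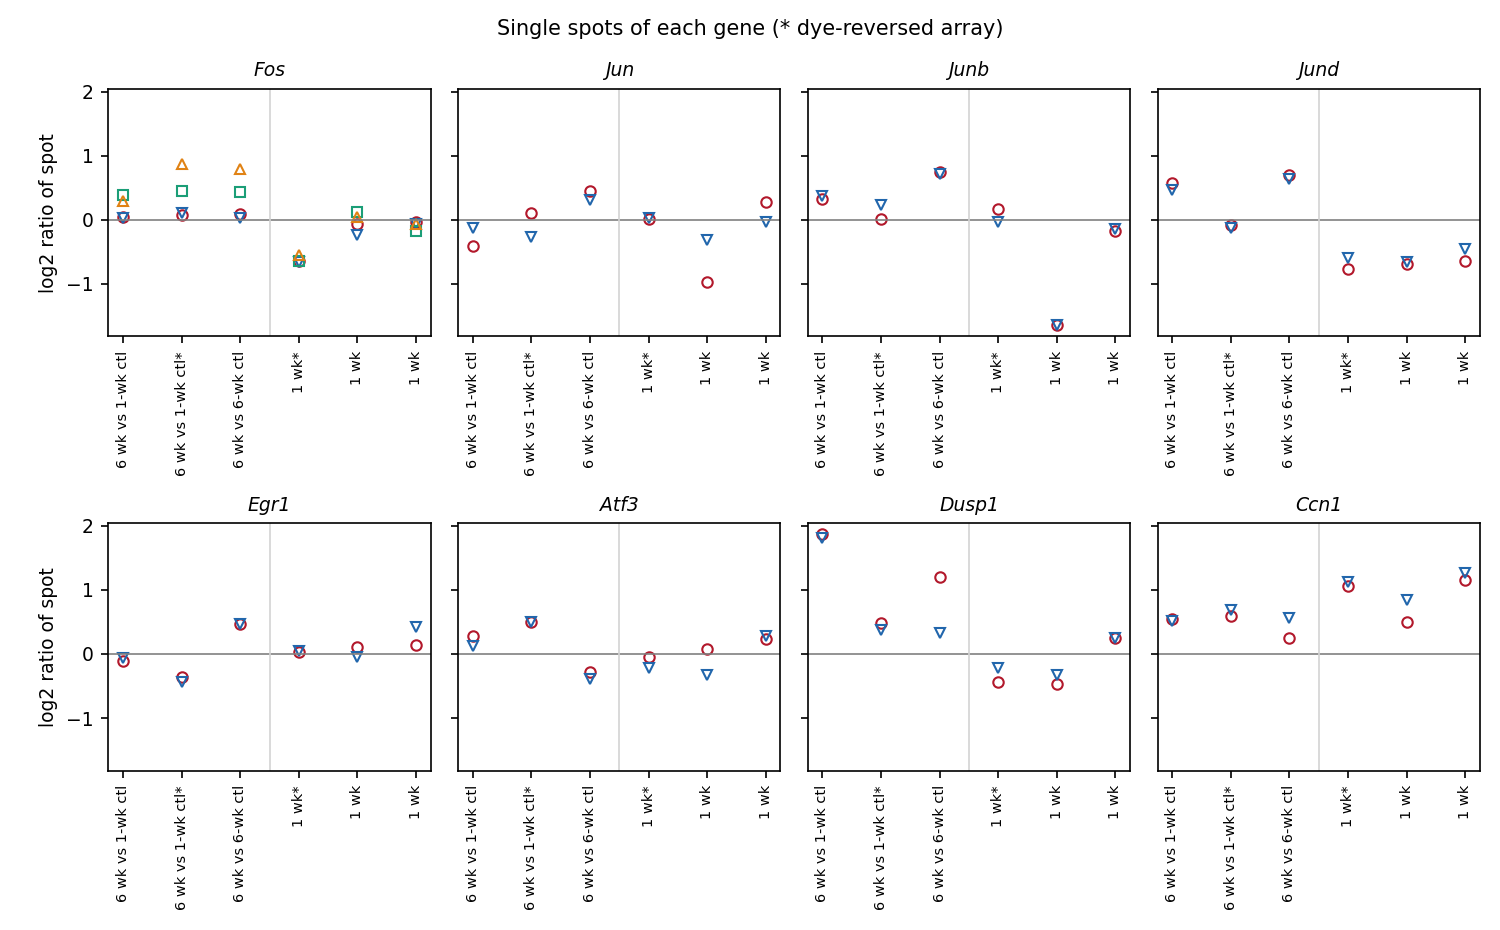
Log2 ratio of each single spot (y axis) on each array, with 6-week arrays left of the grey line and 1-week arrays right of it, and a marker shape for each spot. The spots of a gene differ by at most 0.87, in Dusp1, and the 4 spots of Fos part at 6 weeks.

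Junb, which can restrain Jun-driven transcription, had its spread set by 1 array. It stood at 0.34 and 0.12 on the 6-week arrays against 1-week control and 0.73 on the array against 6-week control, and at 0.07, -1.64 and -0.16 on the 1-week arrays. The value of -1.64 was the lowest of all 8 genes, and both of its spots lay within 0.21 of each other on every array. Averaged over these spots, the 2 times did not overlap. By itself, 1 of the spots overlapped, with 0.014 on the 6-week dye reversal and 0.16 on the 1-week one. The means were 0.48 ± 0.45 at 6 weeks (SE, n = 2) and -0.58 ± 0.37 at 1 week (SE, n = 3). As the SE pools both times, the 6-week one also carries the spread of the 1-week arrays. The difference of 1.06 ± 0.58 had a 95% interval of -0.40 to 2.51. Without that array, 1-week replicate 2, the 1-week mean was -0.048 and the difference 0.53, and without the array against 6-week control the 6-week mean was 0.23.

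Jun, the first-described partner of Fos, also had its lowest value on that 1-week array. It stood at -0.27 and -0.08 on the 6-week arrays against 1-week control and 0.38 on the array against 6-week control, and at 0.02, -0.64 and 0.12 on the 1-week arrays, so the times overlapped. The difference was 0.27 ± 0.36, with a 95% interval of -0.63 to 1.17.

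Egr1 and Atf3 showed no difference between the times that these arrays could resolve. Egr1 stood at -0.08 and -0.40 on the 6-week arrays against 1-week control and 0.46 on the array against 6-week control, and at 0.04, 0.03 and 0.28 on the 1-week arrays. Its difference was -0.01 with a 95% interval of -0.78 to 0.77. Atf3 stood at 0.21 and 0.50 on the 6-week arrays against 1-week control and -0.33 on the array against 6-week control, and at -0.13, -0.12 and 0.26 on the 1-week arrays. Its difference was 0.01 with a 95% interval of -0.79 to 0.81, so differences of either sign of up to about these sizes lie within the intervals.

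Counted over the arrays, Fos, Junb, Dusp1 and Ccn1 were positive on all 3 6-week arrays, against 11.7% of named genes, and 0 were negative on all 3, against 13.0%. Egr1 and Ccn1 were positive on all 3 1-week arrays, against 15.4%, and Fos and Jund were negative on all 3, against 15.6%. Over the 6 arrays, Jund and Dusp1 had the highest correlation of any 2 members, 0.85, and Jund and Ccn1 the lowest, -0.79. These are descriptions of 6 ratios that share dyes and may share control RNA.

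The dyes moved with part of the pattern. Between the dye-reversed arrays alone, 6-week minus 1-week was 1.00 for Fos, 0.76 for Dusp1, 0.58 for Jund, 0.05 for Junb and -0.45 for Ccn1. Between the means of the other arrays it was 0.32, 1.37, 1.21, 1.44 and -0.47 for the same genes in that order. Each of these 5 genes kept its direction in both, which had to be so, since their 6-week and 1-week arrays do not overlap. The other members changed direction between the 2 subsets: Jun (-0.10 and 0.31), Egr1 (-0.44 and 0.03) and Atf3 (0.63 and -0.13). With both dye reversals turned, the difference was -0.05 for Fos, 0.67 for Jund and -0.09 for Ccn1, and none of the 8 intervals then excluded 0.

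**Figure D3:**
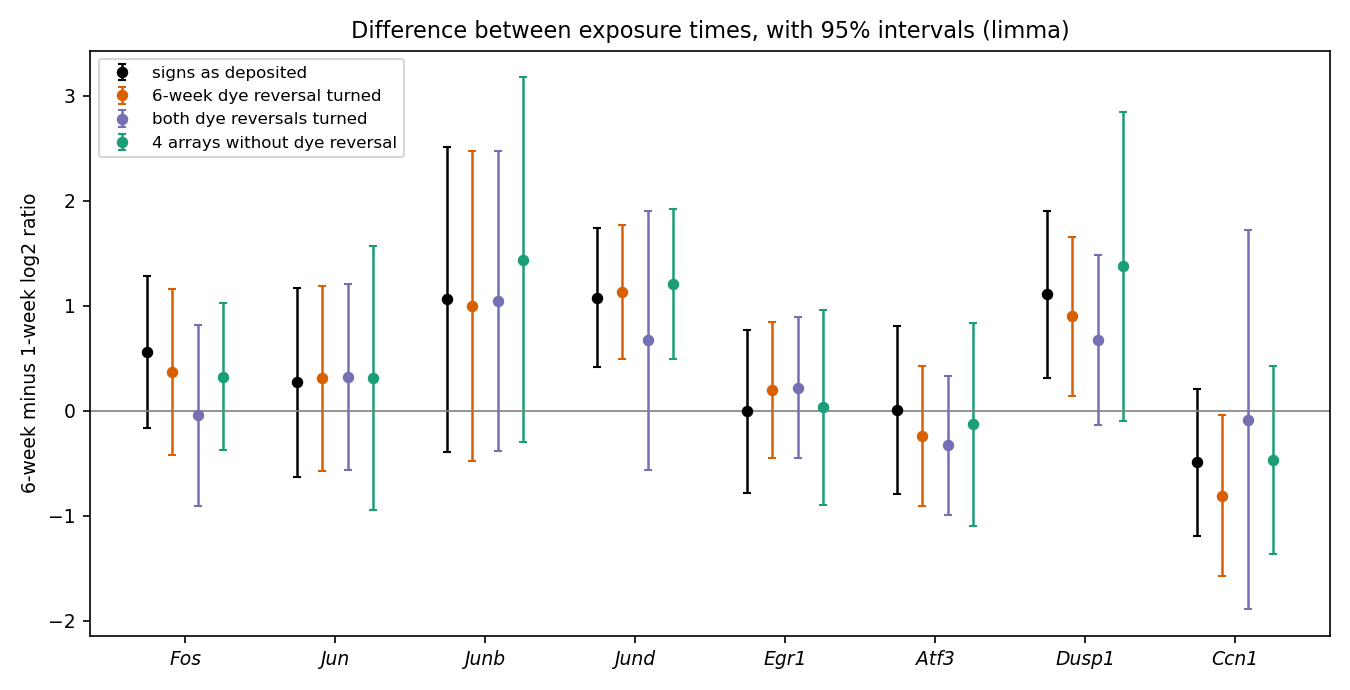
The 6-week minus 1-week difference of log2 ratios (y axis) of each gene, with 95% intervals from limma, under 3 choices of sign and without the dye-reversed arrays. Jund and Dusp1 stand above 0 under every choice, with intervals that reach 0 for both when both reversals are turned and for Dusp1 on the 4 other arrays.

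The wider immediate early response was mixed. Of 28 measured immediate early transcription factors beside the members, of 29 listed, the median was 0.10 at 6 weeks and -0.04 at 1 week, and 1 had a positive unadjusted p under 0.05 at 6 weeks, against 2 positive and 3 negative at 1 week. Of 39 measured signalling and secreted immediate early genes, of 45, the median was 0.10 at 6 weeks and -0.07 at 1 week, with 7 positive and 1 negative at 6 weeks and 3 of each sign at 1 week. Over all tests, 2.18% had such a p with a positive ratio and 1.94% with a negative one at 6 weeks, and 3.53% and 3.12% at 1 week. Of 18 measured AP-1 and bZIP partners, the medians were 0.05 and -0.06, with 1 positive at 6 weeks and 1 positive and 3 negative at 1 week. No gene of these lists passed over all tests.

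Among genes with agreeing spots, 4 genes of these lists passed at 1 week and none at 6 weeks. Klf2, a flow-responsive endothelial transcription factor, fell by 1.34 on the log2 scale at 1 week (adjusted p = 0.00921 by limma). Its 6-week values were 0.57, 0.01 and 0.40, so it stood on opposite sides of 0 at the 2 times, as Fos did. Id3, an inhibitor of bHLH factors, rose by 1.12 (adjusted p = 0.0241), Klf4, another flow-responsive factor, by 0.83 (adjusted p = 0.0302) and Btg1, an antiproliferative gene, by 1.27 (adjusted p = 0.0193), all at 1 week by limma. With both dye reversals turned none of the 4 passed (adjusted p of 0.923 to 0.945). Leaving out each of the 6 arrays in turn, Klf2 passed in 5 fits (adjusted p of 0.0168 to 0.0846 by limma), Btg1 in 3 (0.025 to 0.158), Id3 in 2 (0.0324 to 0.164) and Klf4 in 2 (0.0391 to 0.158). Klf4 also did not pass with the 6-week reversal alone turned (0.121).

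Klf4 had nearly the same ratio at both times, 0.89 ± 0.19 at 6 weeks and 0.83 ± 0.15 at 1 week. Il6, an inflammatory cytokine, stood at 1.00 ± 0.20 at 6 weeks and -0.07 ± 0.17 at 1 week, and Ptgs2, the inducible cyclooxygenase, at 0.78 ± 0.20 and -0.24 ± 0.16. These resemble Dusp1 in being near 1 at 6 weeks and just under 0 at 1 week, and neither passed (adjusted p = 0.957 and 1 at 6 weeks by limma). Nr4a1, an orphan nuclear receptor, stood at 0.25 ± 0.20 at 6 weeks and -0.54 ± 0.16 at 1 week.

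**Figure D4:**
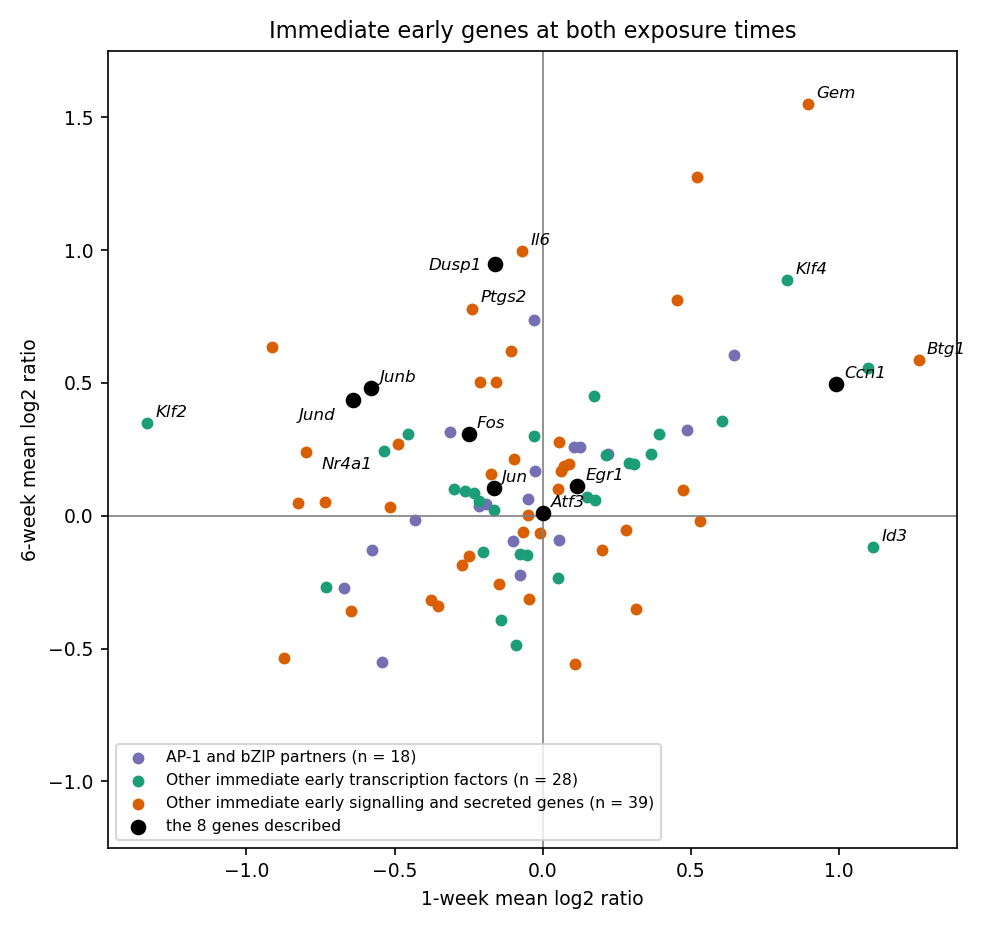
Mean log2 ratio at 6 weeks (y axis) against that at 1 week (x axis) for the 8 genes in black and for 3 lists of other immediate early genes in colour. Ccn1, Klf4 and Gem lie in the upper right, with positive means at both times, while Dusp1, Il6 and Ptgs2 lie near 0 at 1 week.

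Ccn1 belongs to a family of secreted matrix proteins that are also targets of the mechanosensitive coactivator YAP. Ccn2, the connective tissue growth factor of the same family, stood at 1.16 and 1.69 on the 6-week arrays against 1-week control and 1.41 on the array against 6-week control, and at 0.62, 0.48 and 1.51 on the 1-week arrays. Like Ccn1 it was positive on all 6 arrays, but its mean was higher at 6 weeks, 1.42 ± 0.30, against 0.87 ± 0.24 at 1 week. Neither mean passed (adjusted p = 0.0917 and 0.0783 among genes with agreeing spots by limma). The 18 measured genes of the list of CCN and YAP-related genes, of 19, had medians of -0.03 at 6 weeks and -0.08 at 1 week. Beside targets, the list holds genes of the YAP pathway itself, such as Yap1, Tead1 and Lats1. Its medians therefore do not show whether YAP targets stood with Ccn1 and Ccn2.

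Of 6 measured MAP kinase phosphatases beside Dusp1, of 11 listed, none had an unadjusted p under 0.05 at either time, and the medians were 0.02 at 6 weeks and 0.13 at 1 week. Of 27 measured MAP kinase cascade genes and serum response factor cofactors, of 40, the medians were 0.01 and -0.02, with 1 positive at each time.

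Stress and cell-type markers are given beside these values, and their part in them was not tested. Of 18 measured heat shock genes, of 20, the median was -0.02 at 6 weeks and 0.05 at 1 week, with 8 and 9 above 0. Of these, 3 at 6 weeks and 4 at 1 week were positive with an unadjusted p under 0.05 by limma. Over all tests, 2.18% and 3.53% were. Hspa1a, an inducible HSP70 chaperone, stood at 0.98 ± 0.27 at 6 weeks and 0.73 ± 0.22 at 1 week. Its 2 spots differed by up to 1.19 on an array, so it is not among the genes with agreeing spots. Hspa1b of the same list stood at 0.11 at 6 weeks and 0.23 at 1 week. Of 19 measured endothelial markers, of 26, the median lay between -0.48 and 0.01 on the 6-week arrays and between -0.18 and -0.04 on the 1-week arrays. Of 10 measured smooth muscle and pericyte markers, of 11, it lay between -0.01 and 0.51 on the 6-week arrays and between -0.21 and 0.26 on the 1-week arrays. Of 9 measured fibroblast markers, of 11, it lay between -0.21 and -0.03 and between -0.60 and 0.02. Of 16 measured leukocyte markers, of 18, it lay between -0.09 and -0.04 and between -0.27 and 0.09. Of 10 measured epithelial markers, of 11, it lay between -0.28 and 0.19 and between -0.27 and 0.18. Of 5 measured erythroid and platelet markers, of 9, it lay between -0.55 and -0.09 and between -0.27 and 0.16. The endothelial markers did not move together, with 6 of 19 above 0 at 6 weeks and 8 of 19 at 1 week. Among them Tek stood at 0.33 ± 0.18 at 6 weeks and 0.44 ± 0.15 at 1 week. Cldn5, an endothelial tight junction protein, stood at -0.90 ± 0.21 at 6 weeks and -0.68 ± 0.17 at 1 week. With both dye reversals turned these were -0.071 and -0.26. The fibroblast markers did not move together, with 3 of 9 above 0 at 6 weeks and 4 of 9 at 1 week. Postn, a matrix protein, stood at 2.25 ± 0.48 at 6 weeks, and at 1.25 without the array against 6-week control. Dpt, another matrix protein, stood at -0.53 ± 0.27 at 6 weeks and fell by 1.33 on the log2 scale at 1 week, with an adjusted p of 0.0193 by limma among genes with agreeing spots, the only cell-type marker to pass there. With both reversals turned its 1-week value was -0.53 (adjusted p = 0.89), and it passed in 4 of the 6 fits that left out an array (adjusted p of 0.0243 to 0.149).

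The genes whose ratios ran most like those of a member over the 6 arrays, among 5624 other genes with agreeing spots, were B4galt6 for Fos (r = 0.979), Olfr148 (r = 0.985) and Itm2b (r = 0.980) for Jund, Mcm3ap for Dusp1 (r = 0.981) and Thrsp for Ccn1 (r = 0.979). With 6 points and so many genes, values this near 1 were found for all 8 members.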

How the data were processed

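The deposited values are log2 ratios of 32448 features by array, per the file headers and the values: 99.99 to 100% of them are log2 of a fold in whole hundredths (tolerance 0.02 of a hundredth), with a median near 0. Scanner, background correction, normalization, dyes per channel and intensities are not given in the sources used here, so dim spots were not filtered. There were 0 columns of other samples.

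Features with 1 symbol in the probe table (24344) were averaged per gene, and the other 8104 were tested unnamed. Each array was centred on its median. The dye-exchanged 6-week arrays were averaged as 1 replicate, giving 5 replicates, and fitted with limma 3.58.1 in R 4.3.3 (lmFit, eBayes, two-sided, Benjamini-Hochberg over 19242 tests, threshold 0.05, 3 residual degrees of freedom). The code was tested on simulated data. Alternatives changed signs, centring, scaling, spots, dye, control age, variance model and arrays.

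Members and lists were chosen with earlier results of these data known. Beside the members, up to 4 genes per list with the smallest p in any contrast, and the 3 most similar genes per member, could be named.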

Additional observations from a re-analysis of the deposited data

Results flagged for a closer look

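Averaged over its spots, Fos stood above 0 on every 6-week array and below 0 on every 1-week array. Its 6-week minus 1-week difference was 0.56. Klf2 had the same arrangement with a difference of 1.68, and Ptgs2 with a difference of 1.02. Dnajb9, a chaperone of the endoplasmic reticulum, had the opposite arrangement, below 0 on every 6-week array and above 0 on every 1-week array, with a difference of -1.04. By limma none of these differences passed an adjusted p of 0.05 over all tests (0.951 for each). Between the dye-reversed arrays alone the difference of Fos was 1.00, and between the other arrays 0.32. The earlier sequence of Fos averaged 0.08 on 1-week replicate 2, so it did not have this arrangement by itself.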

How the results depend on the processing

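No paired analysis was possible because the labels give no replicate numbers. A slide block and a filter on dim spots were not run, since neither slides nor intensities were used here. No feature passed in the 3 comparisons. At 6 weeks 12 passed among genes with agreeing spots and 5 without variance moderation. Among agreeing genes 0 passed with the 6-week reversal or both turned, 0 without the array against 6-week control, and 8, 2, 11, 12 or 21 without each other array. At 1 week 102 passed among agreeing genes and 2 among named genes only. Among agreeing genes 78 passed with the 6-week reversal turned, 0 with both turned, and 65, 14, 1, 84, 79 or 25 when an array was left out, 1 of them without 1-week replicate 3. For the difference, 5 passed without moderation, and among agreeing genes 1 with the 6-week reversal turned and 1 without the 6-week reversal. At an unadjusted p under 0.05 there were 1318 features at 6 weeks and 1084 for the difference with control age as a term. Agreeing genes gave 437 at 6 weeks, 795 at 1 week and 378 for the difference. Turning both reversals gave 733 at 1 week and 397 for the difference, which ranged from 670 to 1055 when an array was left out.

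The median of the members was 0.24 at 6 weeks with the 6-week reversal or both turned, and 0.078 at 1 week with both turned. With both turned, 1-week values were 0.17 for Fos, 0.064 for Dusp1, -0.16 for Gem and -0.029 for Hspa1a, and differences -0.046 for Fos and -0.060 for Nr4a1. Batf3 at 6 weeks was -0.093 with the 6-week reversal or both turned. Leaving out an array, Jun ranged from -0.18 to 0.15 at 6 weeks, -0.31 to 0.072 at 1 week and -0.0099 to 0.41 in the difference. Egr1 ranged from -0.24 to 0.19 at 6 weeks and -0.36 to 0.077 in the difference. Atf3 ranged from -0.063 to 0.35 at 6 weeks, -0.13 to 0.069 at 1 week and -0.064 to 0.35 in the difference. Egr1 was -0.0063 at 6 weeks with the swap not averaged. Its difference was 0.19 with the 6-week reversal turned, 0.22 with both, 0.033 on the 4 unreversed arrays, 0.35 with control age, 0.057 after quantile normalization and 0.014 after scaling. Atf3 at 6 weeks was -0.24 with the 6-week reversal or both turned, -0.063 on the unreversed arrays and -0.33 with control age. At 1 week it was -0.016 after quantile normalization and -0.020 after scaling. Its difference was -0.24 with the 6-week reversal turned, -0.33 with both, -0.13 on the unreversed arrays and -0.33 with control age. The cause was not tested. The differences of Junb, Jund, Dusp1 and Ccn1 kept their direction under every alternative run. Where arrays were only left out or weighted otherwise, this had to be so, since their 6-week and 1-week arrays do not overlap. With both reversals turned the difference of Ccn1 was -0.085 ± 0.72 (SE).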
